A study of Mus musculus with 6 samples.

Results

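Transcripts of 32 rod and cone photoreceptor genes were described in 6 RNA-seq libraries made from cells isolated as retinal endothelium of mice at postnatal day 7. The genes were chosen by name, and all 32 were found among the 24421 genes of the deposited count table. They were divided by known use into 11 rod genes, 11 cone genes and 10 genes of both cell types. The 3 Smad4-iECKO libraries came from pups that carried the Cdh5-CreERT2 transgene, in which an endothelial promoter drives a Cre that tamoxifen activates, together with floxed Smad4. The 3 Smad4f/f libraries came from pups with floxed Smad4 and no Cre. Pups of both groups were on a mixed BL6/CD1 background, and the labels give tamoxifen at postnatal day 1 in the protocol of every sample. The labels say neither how the cells were purified nor whether a sample held 1 pup or several. The p-values therefore cover only the spread between samples as labelled, which may be technical. Cre was directed at endothelium, so rods and cones of the Smad4-iECKO pups are not the cells in which Smad4 was to be deleted, and their RNA in these libraries stands for neural retina carried over with the isolated cells.

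Rods and cones turn light into an electrical signal through a shared cascade with separate protein sets. A light-activated opsin switches on the G protein transducin, transducin activates the phosphodiesterase PDE6, PDE6 breaks down cyclic GMP, and the cyclic-nucleotide-gated channels of the outer segment close. CRX acts in both cell types, NRL and NR2E3 direct rod identity, and the thyroid hormone receptor encoded by Thrb directs the choice between cone opsins. In the mouse, outer segments and much of the cascade are still being built in the first postnatal weeks.

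Total counts ran from 12633018 to 23164952 in 5 libraries and were 2233360 in Smad4-iECKO replicate 2. In that library 3 counts, used here as the floor of detection, corresponded to 1.39 CPM (each count divided by the TMM-scaled library size), against 0.123 to 0.239 CPM in the others. Floors and intervals cover counting error only. Smad4 itself lay at 109.5 to 157.5 CPM in Smad4f/f and 93.9 to 133.9 CPM in Smad4-iECKO, and since the floxed exons are not named in the labels, this level does not check the genotypes. The labelled cell type was represented in every library: Cdh5, which encodes VE-cadherin, was at 152 to 672 CPM. Sample titles begin with Lit38 (4 libraries) or Lit40 (Smad4f/f replicate 2 and Smad4-iECKO replicate 2), called prefix 38 and prefix 40 here. What the prefix stands for is not given in the sources used here.

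The 32 photoreceptor genes together took more of the counts than a list of 20 endothelial markers in all 6 libraries. Smad4f/f replicates 1, 2 and 3 gave 1.06% (95% Wilson interval 1.06 to 1.07%), 2.16% (2.16 to 2.17%) and 1.82% (1.81 to 1.82%) of their counts to the 32 genes. The genes held 1.76% (1.75 to 1.76%), 1.19% (1.17 to 1.20%) and 1.64% (1.64 to 1.65%) in Smad4-iECKO replicates 1, 2 and 3. The group means were 1.68% ± 0.563 in Smad4f/f and 1.53% ± 0.300 in Smad4-iECKO (SD, n = 3 each), so the groups overlapped and differed by less than the spread within them. The 20 endothelial markers held 0.186% to 0.920%. The 2 lists differ in length and in choice of genes, so their sums do not measure the fraction of each cell type. Most of the photoreceptor counts belonged to the genes of both cell types (0.568% to 1.22%) and to the rod genes (0.432% to 0.854%), while the cone genes held 0.0575% to 0.0914%. The cone sum includes Gnb3, which bipolar cells also use. It gave 6609 of 16158 cone counts in Smad4-iECKO replicate 1 and 852 of 1354 in replicate 2 of that group. The rod sum includes Gnb1, which most cells use (21760 of 88164 counts in Smad4f/f replicate 3). In bulk RNA, fewer photoreceptors and less RNA per photoreceptor cannot be told apart.

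**Figure D1:**
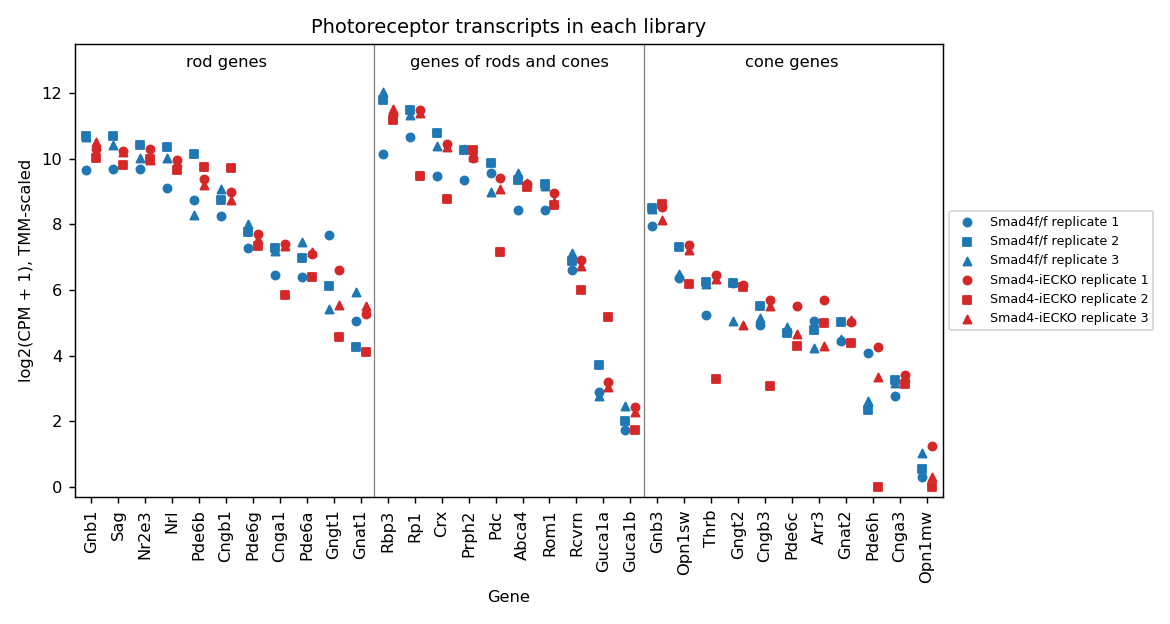
Level of each of the 32 genes as log2(CPM + 1), with genes in 3 panels by cell type and ordered by their Smad4f/f mean. Blue symbols are the 3 Smad4f/f libraries and red symbols the 3 Smad4-iECKO libraries. The groups overlapped for all 32 genes. Smad4-iECKO replicate 2 (red squares) lay below the others for 16 genes, among them Rp1, Crx, Pdc, Thrb, Cngb3 and Pde6h. It lay above them for 3 genes, Guca1a, Cngb1 and Gnb3.

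The transcription factor genes Nr2e3, Crx and Nrl were abundant in every library, and Thrb was lower. Levels of different genes were compared as RPKM, the TMM-scaled CPM per kilobase of 1 annotated transcript. Nr2e3, a nuclear receptor of rods, had a median of 506 RPKM over the 6 libraries (range 406 to 679). The homeobox gene Crx was at 457 RPKM (151 to 601) and the rod leucine zipper gene Nrl at 391 RPKM (221 to 522), and the ranges of all 3 overlapped. Thrb, which other cells also express, was at 11.8 RPKM (1.42 to 14.1). By library, Nrl was at 552, 1307 and 1036 CPM in Smad4f/f replicates 1, 2 and 3 and at 996, 802 and 962 CPM in Smad4-iECKO replicates 1, 2 and 3. Smad4f/f replicates 1 and 2 were thus the lowest and the highest of all 6, with the Smad4-iECKO libraries between them. The fitted log2 fold change of Nrl in Smad4-iECKO was -0.07 (SE 0.39, edgeR quasi-likelihood F-test, adjusted p = 1.00). Nr2e3 was at 828, 1383 and 1035 CPM in Smad4f/f and 1262, 1025 and 1008 CPM in Smad4-iECKO, a log2 fold change of 0.02 (SE 0.35). Crx was at 708, 1754 and 1349 CPM in Smad4f/f and 1409, 440.2 and 1321 CPM in Smad4-iECKO, a log2 fold change of -0.26 (SE 0.52). For Crx the groups overlapped, and Smad4-iECKO replicate 2 held less than any other library.

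CRX recognises a short core, TAATCC, which was looked for before the start sites of these genes. RefSeq start sites (GRCm38.p6) were found for 22 of the 32 genes, with 24 start sites in all. The core, read on both strands, was present in the 250 bases before the start in 10 of 24 windows (41.7%), against 6.25% of 32851 windows of all genes. TGCTGA, one arm of the element that NRL binds, was present in 4 of 24 windows (16.7%) and in 16.1% of all windows. Such a match is a description of the letters and not evidence of binding in these cells. The windows below are shown for Crx itself, for the abundant Rbp3 and Sag, for Cngb1 and for the cone gene Gnat2, which hold the core, and for the abundant Prph2, which holds neither motif. Capitals mark TAATCC or its reverse complement GGATTA and TGCTGA or its reverse complement TCAGCA. In Crx the capitals begin 94 and 21 bases before the start, and in Cngb1 58 and 25 bases before it.
Crx, chr7:15879956-15880205, minus strand: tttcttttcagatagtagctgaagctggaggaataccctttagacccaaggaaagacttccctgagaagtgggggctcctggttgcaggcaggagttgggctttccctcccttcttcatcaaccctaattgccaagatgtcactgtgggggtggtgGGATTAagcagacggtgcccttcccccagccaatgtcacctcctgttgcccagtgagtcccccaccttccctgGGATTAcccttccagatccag
Rbp3, chr14:33953753-33954002, plus strand: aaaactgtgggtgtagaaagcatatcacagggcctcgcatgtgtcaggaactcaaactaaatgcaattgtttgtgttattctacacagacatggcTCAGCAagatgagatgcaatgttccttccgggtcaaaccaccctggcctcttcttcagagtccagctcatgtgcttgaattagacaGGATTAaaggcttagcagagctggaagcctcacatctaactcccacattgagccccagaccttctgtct
Sag, chr1:87803430-87803679, plus strand: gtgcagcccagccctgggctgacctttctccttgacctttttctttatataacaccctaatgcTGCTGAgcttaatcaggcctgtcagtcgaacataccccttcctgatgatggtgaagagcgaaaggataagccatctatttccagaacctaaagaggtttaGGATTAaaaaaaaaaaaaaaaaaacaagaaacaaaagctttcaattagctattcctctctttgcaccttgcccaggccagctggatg
Cngb1, chr8:95306586-95306835, minus strand: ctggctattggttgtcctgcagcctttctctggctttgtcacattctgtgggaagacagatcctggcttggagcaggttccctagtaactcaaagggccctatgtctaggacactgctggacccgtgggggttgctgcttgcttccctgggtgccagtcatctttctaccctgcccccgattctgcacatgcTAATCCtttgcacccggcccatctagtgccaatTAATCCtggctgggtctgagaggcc
Gnat2, chr3:108092816-108093065, plus strand: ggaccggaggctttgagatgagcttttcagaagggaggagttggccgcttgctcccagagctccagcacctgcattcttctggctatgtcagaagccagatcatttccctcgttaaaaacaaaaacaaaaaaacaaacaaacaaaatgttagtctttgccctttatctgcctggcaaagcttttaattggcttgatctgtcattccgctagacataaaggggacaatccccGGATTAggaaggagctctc
Prph2, chr17:46910228-46910477, plus strand: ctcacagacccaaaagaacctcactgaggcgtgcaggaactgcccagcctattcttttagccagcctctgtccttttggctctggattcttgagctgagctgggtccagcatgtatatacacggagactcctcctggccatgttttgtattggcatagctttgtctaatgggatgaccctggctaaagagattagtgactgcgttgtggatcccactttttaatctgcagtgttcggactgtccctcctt

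Several genes for the structure and support of the outer segment were among the most abundant of the 32, while Abca4 was lower (83.6 RPKM in the median library). Rbp3 encodes the retinoid carrier of the matrix between photoreceptors and pigment epithelium. It was at 1141, 3515 and 4243 CPM in Smad4f/f and at 2562, 2318 and 2935 CPM in Smad4-iECKO (519 RPKM in the median library). Smad4f/f replicate 1 was lowest and the other 2 Smad4f/f libraries were above all Smad4-iECKO libraries, with a log2 fold change of -0.19 (SE 0.51). Rp1, a microtubule-binding protein of the photoreceptor axoneme, was at 1633, 2847 and 2600.2 CPM in Smad4f/f and 2889, 707 and 2723 CPM in Smad4-iECKO. Only Smad4-iECKO replicate 2 fell outside the Smad4f/f range on the lower side. The tetraspanins of the disc rim were steadier: Prph2 spanned 656 to 1258 CPM and its partner Rom1 347 to 595 CPM over the 6 libraries. Abca4, the flippase that clears retinoid from discs, spanned 347 to 753 CPM, with a log2 fold change of 0.02 (SE 0.36).

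The rod phototransduction genes were present at very unequal levels. Sag, which encodes rod arrestin, had the highest median of the 32 per length of the chosen transcript, at 696 RPKM (478 to 962). Its range overlapped those of Rp1 (169 to 693) and Rbp3 (216 to 801). The rank depends on the transcript: over the merged exons of each gene, the mean was 133 RPKM for Sag and 526 for Rbp3. Gnat1, the alpha subunit of rod transducin, was at 15.1 RPKM (6.99 to 25.997), far below the range of Sag. Gnat1 was at 32.5, 18.3 and 60.5 CPM in Smad4f/f and 38.04, 16.3 and 44.6 CPM in Smad4-iECKO, lowest in both libraries of prefix 40. Among the PDE6 subunits, the catalytic beta subunit gene Pde6b was at 223 RPKM (112 to 403) and the inhibitory gamma subunit gene Pde6g at 218 RPKM (172 to 289), overlapping each other. The catalytic alpha subunit gene Pde6a was lower, at 28.3 RPKM (18.03 to 37.96). Pde6b was uneven between libraries, with 427, 1127 and 314 CPM in Smad4f/f and 662, 867 and 588 CPM in Smad4-iECKO. Here the Smad4f/f libraries held both the highest and the lowest values. The channel subunit genes Cngb1 and Cnga1 were at 75.7 (49.6 to 136) and 54.8 (20.7 to 61.5) RPKM. Gnb1, a beta subunit that most cells use, spanned 809 to 1657 CPM.

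Gngt1, the gamma subunit of rod transducin, had one of the widest ranges. It was at 202, 68.7 and 41.8 CPM in Smad4f/f and 96.1, 22.8 and 45.5 CPM in Smad4-iECKO. The groups overlapped, and Smad4f/f replicate 1, the lowest library for 12 of the 32 genes, held the most Gngt1. It was also the highest library for Gngt2. Its log2 fold change of -0.91 (SE 0.65, adjusted p = 1.00) was the lowest of the 31 tested members. Without Smad4f/f replicate 1 it was 0.00042, and without Smad4-iECKO replicate 1 it was -1.60 (edgeR, unadjusted p = 0.0450, adjusted p = 0.973). In the latter fit 230 of 14641 genes had an unadjusted p under 0.05. Pdc, phosducin, which binds the beta and gamma subunits of transducin, was at 756, 945 and 505 CPM in Smad4f/f and 679, 144 and 544 CPM in Smad4-iECKO. Smad4-iECKO replicate 2 alone lay outside the Smad4f/f range. Recoverin (Rcvrn), the calcium sensor that restrains opsin kinase, was at 97.9 to 140.0 CPM in Smad4f/f and 63.2 to 119 CPM in Smad4-iECKO.

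The activators of guanylate cyclase were the least abundant of the shared genes. Guca1a was at 6.39, 12.1 and 5.84 CPM in Smad4f/f and at 8.16, 35.3 and 7.33 CPM in Smad4-iECKO. Its log2 fold change of 1.00 (SE 0.67, adjusted p = 1.00) was the highest of the 31 tested members. It rested on Smad4-iECKO replicate 2, since the value without that library was -0.10. Guca1b, its neighbour on chromosome 17, was at 2.37 to 4.49 CPM in Smad4f/f and 2.32 to 4.44 CPM in Smad4-iECKO.

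Cone genes were present at lower levels, and all but Opn1mw and Pde6h had counts in every library. The median of the 11 cone genes' median levels was 11.8 RPKM, against 218 RPKM for the 11 rod genes and 363 RPKM for the 10 shared genes. Only Gnb3, a beta subunit that bipolar cells also use, exceeded 100 RPKM among the cone genes (193 RPKM, 135 to 215). The short-wavelength opsin gene Opn1sw was at 82.4, 157 and 88.1 CPM in Smad4f/f and 166, 72.5 and 147 CPM in Smad4-iECKO, with overlapping groups and a log2 fold change of 0.24 (SE 0.40). The medium-wavelength opsin gene Opn1mw was close to the floor. It had 3, 11 and 14 counts in Smad4f/f replicates 1, 2 and 3 and 25, 0 and 3 counts in Smad4-iECKO replicates 1, 2 and 3. The same libraries held 1045, 3816 and 1178 and 2981, 156 and 1845 counts of Opn1sw. At the depth of Smad4-iECKO replicate 2, 0 counts allow up to 1.39 CPM, which is as high as the largest value in the other libraries (1.39 CPM in Smad4-iECKO replicate 1). Opn1mw was also the 1 gene of the 32 that did not pass the filter on low counts.

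The other cone genes showed no separation of the groups. Arr3, cone arrestin, was at 32.6, 26.3 and 17.8 CPM in Smad4f/f and 51.2, 30.7 and 18.7 CPM in Smad4-iECKO (log2 fold change 0.39, SE 0.43). Gnat2, the alpha subunit of cone transducin, was at 21.1 to 31.9 CPM in Smad4f/f and 19.99 to 32.8 CPM in Smad4-iECKO. The cone phosphodiesterase gene Pde6c was at 24.6 to 28.1 CPM and 18.6 to 44.7 CPM, and the channel gene Cnga3 at 5.83 to 8.64 CPM and 7.90 to 9.61 CPM. Its partner Cngb3 was at 29.8, 44.9 and 34.3 CPM in Smad4f/f and at 50.7, 7.44 and 44.6 CPM in Smad4-iECKO, and Thrb at 36.7, 74.6 and 71.3 CPM and 87.2, 8.83 and 80.1 CPM. For both, Smad4-iECKO replicate 2 was lowest and Smad4-iECKO replicate 1 highest. Gngt2, the cone gamma subunit, fell into a low pair, Smad4f/f replicate 3 (32.7 CPM) and Smad4-iECKO replicate 3 (29.9 CPM), and 4 libraries at 67.4 to 73.6 CPM. Pde6h, the cone inhibitory subunit, was at 16.006, 4.07 and 5.16 CPM in Smad4f/f and 18.4, 0 and 9.25 CPM in Smad4-iECKO. Exons of Gngt2, Opn1sw and Pde6h overlap exons of Abi3, Calu and Arhgdib on the opposite strand, and those of Nr2e3 overlap the gene model Gm15507. The library kit does not mark strand, so counts of these 4 genes may include reads of the overlapping gene.

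Pairs of rod and cone genes that encode the same part of the cascade differed in how far rods prevailed. The rod gene was higher per length in all 6 libraries for Sag over Arr3 (median ratio 36.4, range 18.6 to 60.3), Cnga1 over Cnga3 (22.9, 9.31 to 23.9), Pde6b over Pde6c (18.7, 10.3 to 43.1), Cngb1 over Cngb3 (7.70, 7.31 to 86.1) and Gnb1 over Gnb3 (2.36, 1.53 to 3.11). Pde6g exceeded Pde6h by 63.7 to 353 times in the 5 libraries with Pde6h counts, a ratio that the long annotated Pde6h transcript (5940 bases) enlarges. The alpha and gamma subunits of transducin gave ratios on both sides of 1. Gnat1 was 0.51 to 2.44 times as high as Gnat2 and the higher of the pair in 4 of 6 libraries, and Gngt1 was 0.45 to 3.69 times as high as Gngt2. Summed over all rod genes except Gnb1 and all cone genes except Gnb3 and Thrb, there were 12.2, 17.5 and 21.0 rod counts per cone count in Smad4f/f replicates 1, 2 and 3. There were 11.9, 21.3 and 15.1 in Smad4-iECKO replicates 1, 2 and 3, with full overlap of the groups.

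**Figure D2:**
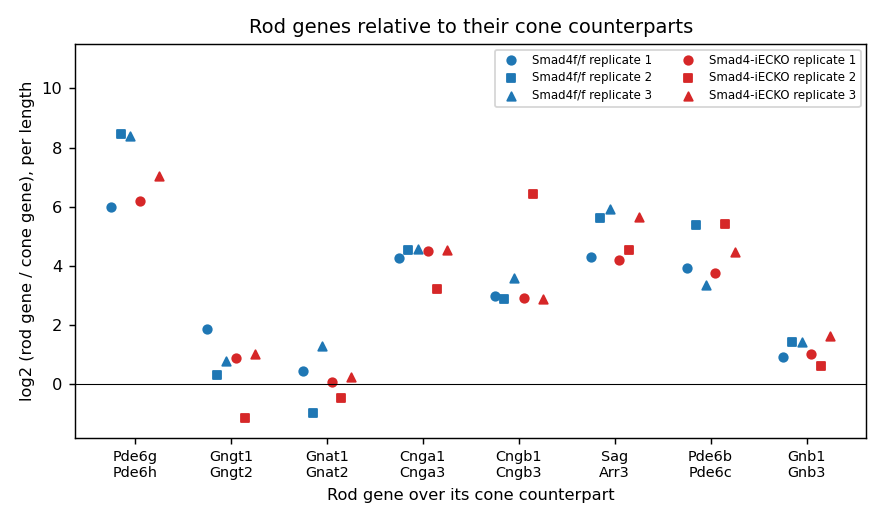
Ratio of each rod gene to its cone counterpart per kilobase of transcript, on a log2 axis, with 1 symbol per library (blue Smad4f/f, red Smad4-iECKO). Only the transducin pairs Gnat1 with Gnat2 and Gngt1 with Gngt2 had libraries below 0; Pde6h was listed at 0 in Smad4-iECKO replicate 2, so that ratio is not drawn.

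Photoreceptor and endothelial transcripts ranked in roughly opposite order across libraries, as shares of the same totals. From high to low, the share of the 32 genes ran Smad4f/f replicate 2, Smad4f/f replicate 3, Smad4-iECKO replicate 1, Smad4-iECKO replicate 3, Smad4-iECKO replicate 2 and Smad4f/f replicate 1. The endothelial list was at 0.186%, 0.544%, 0.311%, 0.504%, 0.574% and 0.920% in that order. Per endothelial count there were 1.15, 11.6 and 3.34 photoreceptor counts in Smad4f/f replicates 1, 2 and 3 and 5.64, 2.07 and 3.26 in Smad4-iECKO replicates 1, 2 and 3. The extremes were both Smad4f/f libraries. On the log2 scale the ratio differed between the groups by -0.08, against a spread of 1.29 (SD) within them. Leaving out replicates 1, 2 and 3 of Smad4f/f in turn changed this difference to -0.89, 0.78 and -0.12. Leaving out replicates 1, 2 and 3 of Smad4-iECKO gave -0.45, 0.27 and -0.05, and prefix 38 alone gave 1.13, so its direction depended on single libraries. Smad4f/f replicate 1 or Smad4-iECKO replicate 2 was the lowest library for 28 of the 32 genes, and for 30 of 32 other photoreceptor genes. Over all 14362 genes tested, 1 of these 2 libraries was lowest for 61.2%. Conversely, 1 of the 2 was highest for 19 of the 20 endothelial markers, beside 57.4% of all genes tested.

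Markers of other retinal cell types were also present, mostly at lower shares. Bipolar cell markers, among them Prkca (122 to 247 CPM), held 0.0826% to 0.147% of counts, and 0.0661 to 0.0967 counts per photoreceptor count. Amacrine and horizontal cell markers, led by Slc6a9 and Pax6, held 0.0225% to 0.0617%, and ganglion cell markers, led by Rbpms and Nefl, 0.00587% to 0.0112%. The summed share of Mueller glia markers (0.116% to 0.237%) was highest in Smad4f/f replicate 1 and Smad4-iECKO replicate 2 and lowest in Smad4f/f replicate 2. This sum did not follow the photoreceptors, but its leading genes differed. Vim, which endothelium and astrocytes also make (256 to 1268 CPM), was highest in Smad4-iECKO replicate 2. Glul (178 to 662 CPM) was highest in Smad4f/f replicate 1 and only at 228 CPM in Smad4-iECKO replicate 2. The rank of Smad4-iECKO replicate 2 thus rested partly on Vim, and the order without Vim was not computed. Progenitor markers, led by Ccnd1 and Mki67, held 0.0396% to 0.0763%, and Pax6 is in this list too. Like the endothelial list, Rbpms and Mki67 were highest in Smad4f/f replicate 1 (56.1 and 253 CPM) and lowest in Smad4f/f replicate 2 (16.2 and 38.5 CPM). Nefl and Ccnd1 were highest in Smad4-iECKO replicate 2. Which cells gave the ganglion and progenitor counts was not tested. Microglia markers, led by Csf1r and Laptm5, held 0.00354% to 0.00567% in Smad4f/f and 0.00761% to 0.0126% in Smad4-iECKO. Markers of the pigment epithelium, the tissue that faces the outer segments, were led by Dct and Mitf and held 0.00182% to 0.00268%. Of the endothelial list, Kdr and Ptprb had the most counts, at 366 to 1194 and 228 to 1113 CPM.

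**Figure D3:**
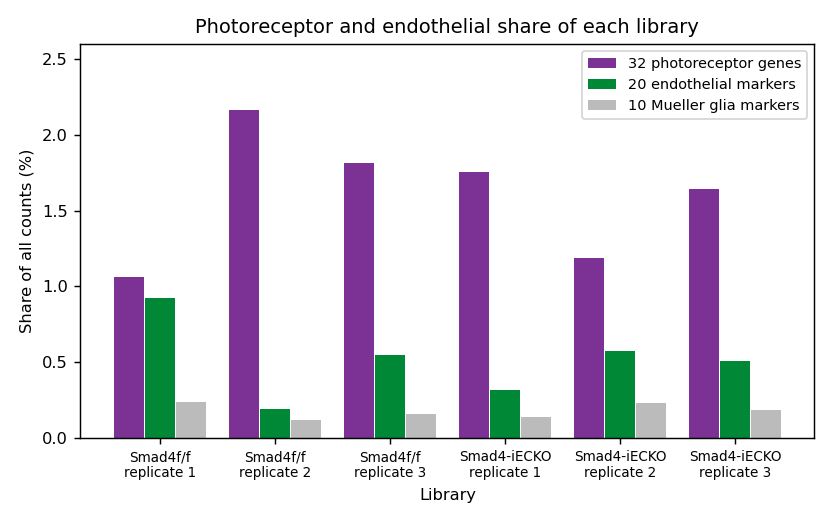
Share of all counts, in percent, held by the 32 photoreceptor genes (purple), 20 endothelial markers (green) and 10 Mueller glia markers (grey) in each library. The photoreceptor bars run from 1.06% to 2.16%, and the endothelial bar is tallest where the photoreceptor bar is shortest (Smad4f/f replicate 1) and shortest where it is tallest (Smad4f/f replicate 2).

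No photoreceptor gene passed the threshold between the genotypes. Of the 31 genes that passed the filter, 15 had positive and 16 negative log2 fold changes, with a median of -0.03, beside -0.02 over all genes tested, of which 51.8% were negative. By edgeR's quasi-likelihood F-test 0 of 31 had an adjusted p under 0.05, and 0 had an unadjusted p under 0.05. Over all 14362 genes the shares were 0.0% and 1.31%. DESeq2 also called 0 of 32 members and limma-voom 0 of 31, with 0 at an unadjusted p under 0.05 in either. DESeq2 called 12 genes in the whole table (0.0611%). No member had all 3 Smad4-iECKO libraries above or below all 3 Smad4f/f libraries, while 2.49% of all genes were higher and 2.83% lower in that way. In the authors' deposited table of the comparison, 0 of the 31 members with an adjusted p passed 0.05, against 13.4% of 14225 genes. The authors' SE was smaller than that of the edgeR fit for every tested member, such as Nr2e3 (0.123 against 0.349). The 2 come from different methods and are not like measures, so the gap has no assigned source here. The deposited counts hold 3 equal columns per sample, and counting these as separate samples would make p-values too small. Whether the authors' test did so was not tested. The smallest adjusted p of the members in the authors' deposited table was 0.0586, for Guca1a. At an unadjusted p under 0.05 the authors' deposited table held 5 of the 32 members: Guca1a, Cngb1, Cnga3, Gngt1 and Pdc. The share of all genes at that threshold was not computed. Among the 14225 genes with an adjusted p it is at least the 13.4% that passed after adjustment. This lower bound does not decide whether 5 members are more than the share of all genes, so nothing is read from the count. By class, the rod genes had 4 positive and 7 negative values (median -0.08), the shared genes 4 and 6 (median -0.18) and the cone genes 7 and 3 (median 0.18).

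A further 32 photoreceptor genes gave a similar count. They included kinases, cyclases, ciliary proteins and synaptic channel subunits as well as fate regulators that are shared with other cells. All 32 passed the filter, 14 with positive and 18 with negative log2 fold changes (median -0.03), and 0 were called (edgeR, 0 also at an unadjusted p under 0.05). The smallest p belonged to Slc24a1, the sodium, calcium and potassium exchanger of rods, at 68.9 ± 42.8 CPM in Smad4f/f and 44.7 ± 15.8 CPM in Smad4-iECKO (SD, n = 3 each; edgeR adjusted p = 1.00). The next were Neurod1 (518 ± 115 and 381 ± 194 CPM), Rxrg (18.6 ± 10.7 and 13.7 ± 1.82 CPM) and Tulp1 (435 ± 26.1 and 536 ± 238 CPM), all with overlapping groups. Rpgrip1 and Cdhr1 had the most counts of this list, at 1157 and 1015 CPM on average in Smad4f/f and 1224 and 849.7 CPM in Smad4-iECKO. The biological coefficient of variation estimated by edgeR had a median of 0.367 for the 31 tested members, beside 0.384 over all genes. That estimate is drawn toward a trend with abundance, and the members were not matched with genes of similar level.

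The direction of the photoreceptor genes differed between the title prefixes, and in prefix 38 it rested largely on Smad4f/f replicate 1. In the 4 libraries of prefix 38, 25 of 32 genes were positive (median 0.27, beside -0.01 over all genes of that fit), and 7 were negative. Smad4f/f replicate 1 was below both Smad4-iECKO libraries of that prefix for 26 of 32 genes and above both for 3. Smad4f/f replicate 3 was below both for 13 genes and above both for 13, among them Nrl, Sag and Rbp3. The shares of all genes in these positions were not computed. Of all 6 libraries, Smad4f/f replicate 1 was lowest for 12 and highest for 2 of the 32 members. Over all genes tested it was lowest for 21.3% and highest for 26.5%. In the pair of prefix 40, 25 of the 30 genes with counts in both libraries were lower in the Smad4-iECKO library (median log2 ratio -0.60), and 5 were higher. That pair has 1 library per group and allows no test, and its share over all genes was not computed. Smad4-iECKO replicate 2 was the lowest of the 6 libraries for 16 of the 32 genes, and for 39.9% of all genes tested. Within prefix 38, 2 of the 32 members had an unadjusted p under 0.05 in the edgeR fit, beside 603 of all 14600 genes of that fit. They were Opn1sw (log2 fold change 0.86, SE 0.24, unadjusted p = 0.00911) and Pde6b (0.74, SE 0.31, unadjusted p = 0.0479), with an adjusted p of 0.999 for both. The 3 endothelial markers below had ratios of the opposite sign to most photoreceptor genes in both prefixes. The log2 ratio of Cdh5 was -0.42 in prefix 38 and 1.73 in prefix 40, and that of Pecam1, the adhesion molecule CD31, -0.83 and 1.57. Cldn5, claudin 5, had ratios of -1.90 and 2.53. The part of this in the photoreceptor values was not tested.

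**Figure D4:**
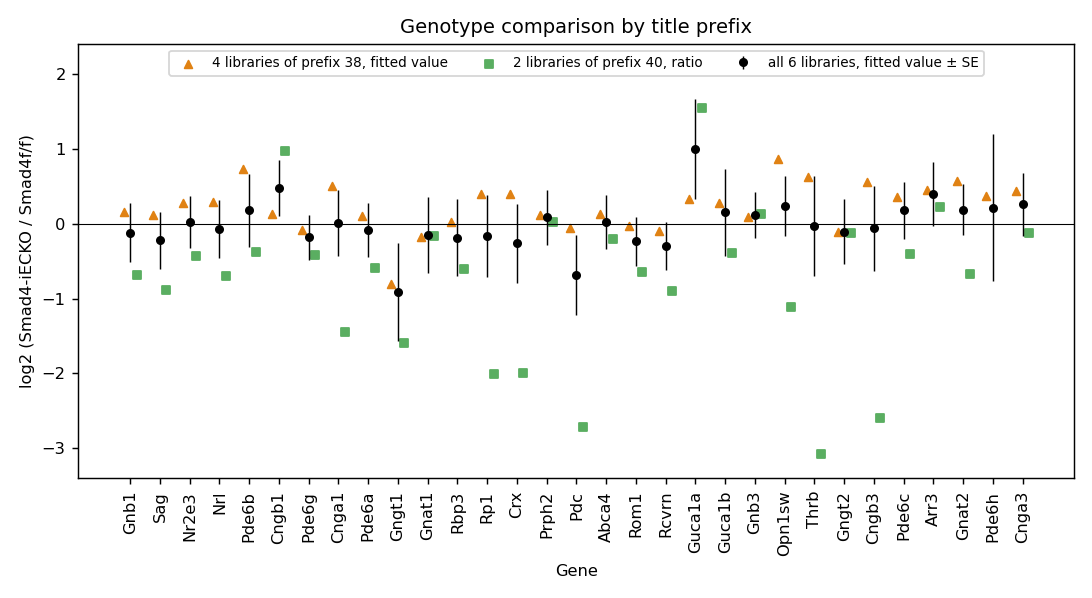
Difference between the genotypes (Smad4-iECKO over Smad4f/f, log2) for the 31 tested genes. Black points are fitted values from all 6 libraries with their SE, orange triangles are fitted values from the 4 libraries of prefix 38, and green squares are the ratio of the 2 libraries of prefix 40 (none for Pde6h); most orange points lie above 0 and most green points below.

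Smad4-iECKO replicate 2 also differed from the rest in which photoreceptor genes it held. The deviation of each tested gene in this library from its mean in the other 5, as log2(CPM + 1), ran from -3.34 (Pde6h) to 2.06 (Guca1a). It rose with the GC content of the transcript, with a Spearman correlation of 0.643 across the 31 genes and 0.568 across 13813 genes tested that had an annotated transcript. These correlations are across genes of the same library, which are not independent replicates. Of the 15 members with a GC content of 35.8% to 49.7%, 13 were below the mean of the other libraries (median deviation -1.29). The 16 members at 51.1% to 57.1% had a median deviation of -0.13, and 5 of them were above the mean of the other libraries. Pdc (40.9% GC) was at 144 CPM in this library against 505 to 945 CPM in the others, and Cngb1 (53.9% GC) at 842 against 307 to 541 CPM. In the other libraries the same correlation across members was -0.380, -0.254 and 0.202 for Smad4f/f replicates 1, 2 and 3 and -0.666 and -0.429 for Smad4-iECKO replicates 1 and 3. Each library is part of the mean from which the others deviate, so these values are not independent of the first. Without Smad4-iECKO replicate 2, 18 of 32 genes were positive and 14 negative (median 0.06), and 0 were called.

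**Figure D5:**
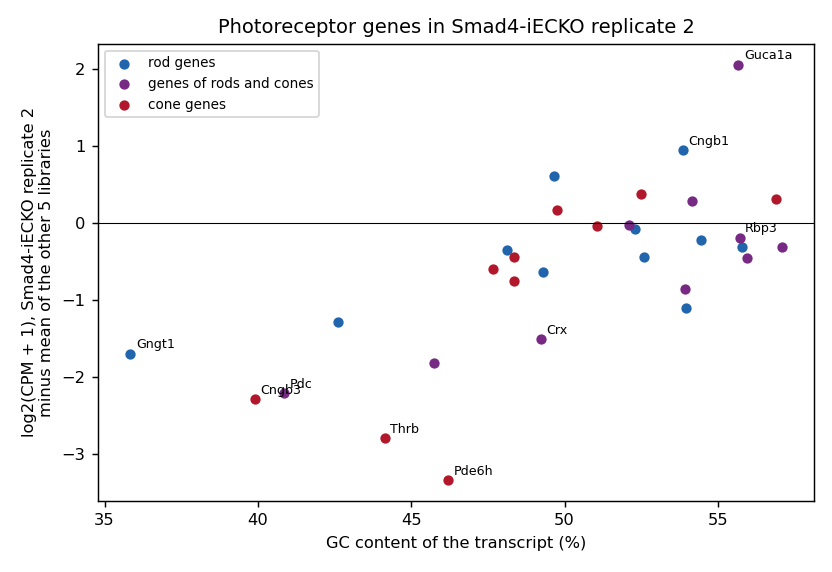
Deviation of each tested gene in Smad4-iECKO replicate 2 from its mean over the other 5 libraries, as log2(CPM + 1), against the GC content of its transcript in percent, with colours for rod, shared and cone genes. Genes at low GC content such as Cngb3, Pdc and Gngt1 lie below 0, and the highest points (Guca1a and Cngb1) lie above 53%.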

How the data were processed

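Per the labels' protocols, RNA was extracted with a GeneJet kit, and bulk libraries were built with Illumina's TruSeq v2 kit for RNA. STAR, DESeq2 and mm10 were used, per the submitters' processing notes; those notes give no version, counting tool or annotation. The authors' deposited table held raw counts per gene in 18 columns, 3 per sample with the same value in all 24421 genes, and each sample was counted once. A second deposited table gave the authors' comparison: a mean normalized signal, log2 fold changes and standard errors, a test score and p-values, per the file headers.

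Groups came from the genotype label, and replicate numbers follow accession order and pair nothing. The fit across all genes used edgeR 4.0.16 (R 4.3.3; quasi-likelihood F-test, TMM scaling, filterByExpr with a minimum count of 10 and total of 15, Benjamini-Hochberg adjusted p under 0.05), checked on simulated data. The SE is the size of the log2 fold change divided by the square root of F. The alternatives were limma-voom (limma 3.58.1), DESeq2 1.42.0, other scalings, no filter, the title prefix as a block or alone, and each replicate left out. RPKM and GC content used the APPRIS principal transcript of GENCODE M21 (mm10), or else the longest. The 32 members, the other lists and the motifs were chosen with earlier results of these data known. Named genes were all 32 members, Cdh5, Pecam1 and Cldn5, the 2 genes with most counts in each other list, and the 4 other photoreceptor genes with the smallest p; 1 of these genes is not reported here. Figures were drawn with matplotlib 3.10.9.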

Additional observations from a re-analysis of the deposited data

How the results depend on the processing

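Of 31 tested photoreceptor genes, 0 were called under any of 13 alternatives. DESeq2 called 12 genes over the whole table, against 0 by edgeR. Direction was less stable: 8 of 31 members (Pde6g, Cngb1, Rom1, Pdc, Rcvrn, Gnat2, Opn1sw and Cnga3) kept theirs under all 13, and 23 reversed under at least 1. limma-voom gave 19 positive and 12 negative members, with Nrl at 0.014, Gnat1 0.15, Rbp3 0.014 and Cngb3 0.018 (log2). With prefix 38 only, values reversed for Nrl (0.29), Gnb1 (0.15), Pde6a (0.10), Sag (0.12), Crx (0.40), Rbp3 (0.021), Rp1 (0.39), Cngb3 (0.56) and Thrb (0.62). Without a scaling factor Nr2e3 was at -0.0072 and Cnga1 at -0.0058, without the filter Cnga1 was at -0.0037, and with the prefix as a block Cnga1 was at -0.11 and Pde6h at -0.34. The cause was not tested.

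Leaving out 1 library at a time gave Nrl -0.35 to 0.21, Nr2e3 -0.14 to 0.24, Gnat1 -0.48 to 0.39, Gnb1 -0.39 to 0.038, Gngt1 -1.60 to 0.00042, Pde6a -0.32 to 0.20, Pde6b -0.15 to 0.92, Cnga1 -0.23 to 0.33, Sag -0.46 to 0.0057 and Crx -0.56 to 0.075. It gave Rbp3 -0.58 to 0.16, Rp1 -0.46 to 0.22, Prph2 -0.17 to 0.23, Abca4 -0.25 to 0.25, Guca1a -0.10 to 1.41, Guca1b -0.045 to 0.42, Gnb3 -0.048 to 0.24, Gngt2 -0.41 to 0.19, Arr3 -0.074 to 0.68, Pde6c -0.27 to 0.38, Pde6h -0.72 to 1.07, Cngb3 -0.45 to 0.36 and Thrb -0.43 to 0.43. Without Smad4f/f replicate 2, Pde6b had an unadjusted p of 0.0493 (edgeR, 0 genes called). In that fit 303 of 14738 genes had an unadjusted p under 0.05. Members were 10 positive and 22 negative without Smad4f/f replicate 1. Dropping replicate 2 of that group gave 22 and 10, and dropping Smad4-iECKO replicate 1 gave 9 and 22. At the depth of Smad4-iECKO replicate 2, 0 counts of Opn1mw cannot be told from its level in the other libraries.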
